A study of Mus musculus with 4 samples.

Results

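The genes described here are 10 factors that mark DNA replication origins and start them: the 6 subunits of the origin recognition complex (Orc1, Orc2, Orc3, Orc4, Orc5 and Orc6) and 4 factors that turn a prepared origin into a replication fork (Cdc7, Dbf4, Mcm10 and Topbp1). They were taken by gene symbol, by a rule that used no measured values, although earlier results of these data were known when they were chosen. All 10 were found among the 14533 genes of the table. The RNA came from mouse embryonic stem cells (ESCs) adapted for over 20 days to medium with serum (serum ESCs) or to serum-free medium with an inhibitor of the kinase MEK and an inhibitor of the kinase GSK3 (2i ESCs), with LIF in both media per the study's methods, and there were 2 libraries per condition. The sample labels place the cells in late G1-phase, whereas the design text of the series names early G1-phase, and the labels were followed. The labels give no cell line, allele or sex for these libraries and do not say whether the replicates came from separate cultures, although the design text and the study call the replicates biological. The p-values measure only the spread between these libraries. The study sorted ESCs by a pair of fluorescent cell-cycle reporters built on fragments of CDT1 and GEMININ, in R1 ESCs, a mouse ESC line. Whether these libraries came from that line is not given in the sources used here.

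The origin recognition complex binds DNA and, with Cdc6 and Cdt1, loads the MCM helicase onto origins during G1-phase, a step called licensing. At the start of S-phase the Cdc7 kinase, active only with its regulatory subunit Dbf4, phosphorylates the loaded helicase, while cyclin-dependent kinases bring in Cdc45 and the GINS complex through Topbp1, and Mcm10 then helps the completed helicase (CMG) to unwind DNA. Mouse ESCs grown in serum are known for a short G1-phase, which leaves little time for licensing. The study asked how serum and 2i culture alter this phase and reported a longer G1-phase in 2i ESCs.

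Summed over the genes of the table, the libraries held 18939401 to 26570098 whole reads, which is not the sequencing depth. Protein-coding genes held 46.9% to 76.3% of them, with both ends of the range of reads and of the share in the serum libraries. Pearson's r of log2 values across the 13005 genes tested, which are not independent replicates, was 0.628 between the 2i replicates, 0.808 between the serum replicates and 0.815 between serum replicate 2 and 2i replicate 2. By the median over genes of the absolute log2 difference, the 2i replicates were 0.76 apart, the serum replicates 0.53, and serum replicate 2 and either 2i library 0.80. All 10 ESC markers were detected, with Pou5f1 between 8452 and 20050 normalized counts. Of 7 primitive endoderm markers 4 were in the table, with summed values of 72.0 to 109 normalized counts in serum and 256.1 to 332 in 2i, and of 8 fibroblast markers 2 were, with sums of 58.2 to 230 over the 4 libraries. Dab2, Foxa2, Sox7, Col1a2, Col3a1, Twist2, Postn, Lum and Dcn were not in it. The study set a minimum of 50 reads per gene in serum or 2i, and whether this removed them is not given. The part of such cells in the members' values was not tested.

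The promoters of 5 members are shown, either for their values in the comparison below or for an E2F word. Dbf4, Mcm10, Orc1 and Topbp1 had serum values above 2i values in all library pairings, and Orc1, Orc3 and Topbp1 held an E2F word near their start. The stretches run from at most 250 bases before the RefSeq start (promoter table on GRCm38.p6) to at most 25 bases after the first annotated start, and were placed by exact match on the NCBIM37 build, which is the mm9 build of the files. Each is written 5′ to 3′ on the strand of the gene, namely Dbf4 at chr5:8422692-8422966 (minus strand), Mcm10 at chr2:4933813-4934087 (minus), Orc1 at chr4:108251809-108252052 (plus), Topbp1 at chr9:103207407-103207569 (plus) and Orc3 at chr4:34562169-34562441 (minus). Capitals mark the words searched on both strands: the E2F words TTTCCCGC, TTTCGCGC, TTTGGCGC and TTTGCCGC, the cell-cycle homology word TTTGAA, and the word CCAAT. A word on the other strand appears as its reverse complement, and no base belongs to more than 1 of the words in these stretches.
Dbf4: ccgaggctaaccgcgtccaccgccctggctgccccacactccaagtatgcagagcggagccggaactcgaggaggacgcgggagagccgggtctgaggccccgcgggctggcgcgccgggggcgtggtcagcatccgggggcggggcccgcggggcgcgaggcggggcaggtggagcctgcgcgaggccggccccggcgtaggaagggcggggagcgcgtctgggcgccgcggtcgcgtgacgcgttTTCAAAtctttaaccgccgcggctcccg
Mcm10: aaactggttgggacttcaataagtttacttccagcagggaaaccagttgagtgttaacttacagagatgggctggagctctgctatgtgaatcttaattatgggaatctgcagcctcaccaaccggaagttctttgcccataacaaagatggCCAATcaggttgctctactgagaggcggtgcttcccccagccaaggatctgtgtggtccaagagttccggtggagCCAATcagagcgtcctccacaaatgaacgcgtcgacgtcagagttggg
Orc1: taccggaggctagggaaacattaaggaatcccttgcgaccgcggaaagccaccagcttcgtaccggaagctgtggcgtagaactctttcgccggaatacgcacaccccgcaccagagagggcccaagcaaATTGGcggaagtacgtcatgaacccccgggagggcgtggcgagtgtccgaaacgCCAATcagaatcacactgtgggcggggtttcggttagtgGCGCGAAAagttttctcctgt
Topbp1: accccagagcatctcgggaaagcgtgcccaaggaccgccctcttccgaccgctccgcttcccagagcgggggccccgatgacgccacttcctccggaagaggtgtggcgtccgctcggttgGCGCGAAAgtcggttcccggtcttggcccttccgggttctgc
Orc3: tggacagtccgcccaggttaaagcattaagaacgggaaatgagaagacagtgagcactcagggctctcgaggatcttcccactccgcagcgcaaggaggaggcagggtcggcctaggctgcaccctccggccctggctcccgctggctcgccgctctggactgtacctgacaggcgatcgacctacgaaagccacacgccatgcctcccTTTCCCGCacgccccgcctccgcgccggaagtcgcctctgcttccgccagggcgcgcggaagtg

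An E2F word lay in the 300 bases around the start of 3 of the 10 members, against 2.26% of all 32851 RefSeq promoters. With the RefSeq start as base 1, it lay at bases -27 to -20 of Orc1 and -129 to -122 of Topbp1, both as TTTCGCGC on the other strand, and at -41 to -34 of Orc3 as TTTCCCGC. The RefSeq start lay 31 bases (Orc1), 112 bases (Topbp1) and 2 bases (Orc3) downstream of the GENCODE vM1 start. The gene coordinates and neighbour distances below use the GENCODE start, and the Orc1 word lies just after it. The word TTTGAA was found on the other strand across the start of Dbf4 (bases -3 to 3) and at bases 3 to 8 of Cdc7, against 17.9% of promoters, and CCAAT in Orc1, Orc2, Orc4, Orc6 and Mcm10, against 37.4%. Counted by gene, 2.6% of 27025 genes held an E2F word. Of the partner genes with a promoter in the table, 7 of 9 licensing partners and 4 of 10 firing and CMG partners held one. So did 1 of 2 S-phase genes (from Cdk2 and its cyclins) and 1 of 17 G2/M genes. TTTGAA was in 12 of those 17 G2/M genes and in 20.2% of all genes. These matches describe letters in a window and not occupied sites.

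All members passed the expression filter (a mean of 50 or more normalized counts in serum or in 2i). Serum ESCs had higher values of Dbf4, Mcm10, Orc1 and Topbp1 in both libraries than 2i ESCs had in either, while the other 6 members overlapped between the conditions. Groups that did not overlap, with serum above, were found for 4 of 10 members and 20.5% of all genes tested, and with 2i above for 0 of 10 members and 19.4% of genes. The fitted log2 fold change (serum over 2i) was above 0 for all 10 members, against 50.3% of genes, but that of Orc3 turned negative with upper quartile scaling and quantile normalization, that of Orc4 with a correction for transcript length and GC content, and that of Orc5 with both scalings, edgeR and DESeq2. Without 2i replicate 1 it was above 0 for 6 of 10 members, with Orc3, Orc5, Orc6 and Cdc7 negative, and without serum replicate 2 Orc4 was negative. The members' median log2 fold change was 0.42, beside 0.0047 over all genes, and without 2i replicate 2 it was 0.92. In bulk RNA, fewer cells with a transcript and less of it per cell cannot be told apart.

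**Figure D1:**
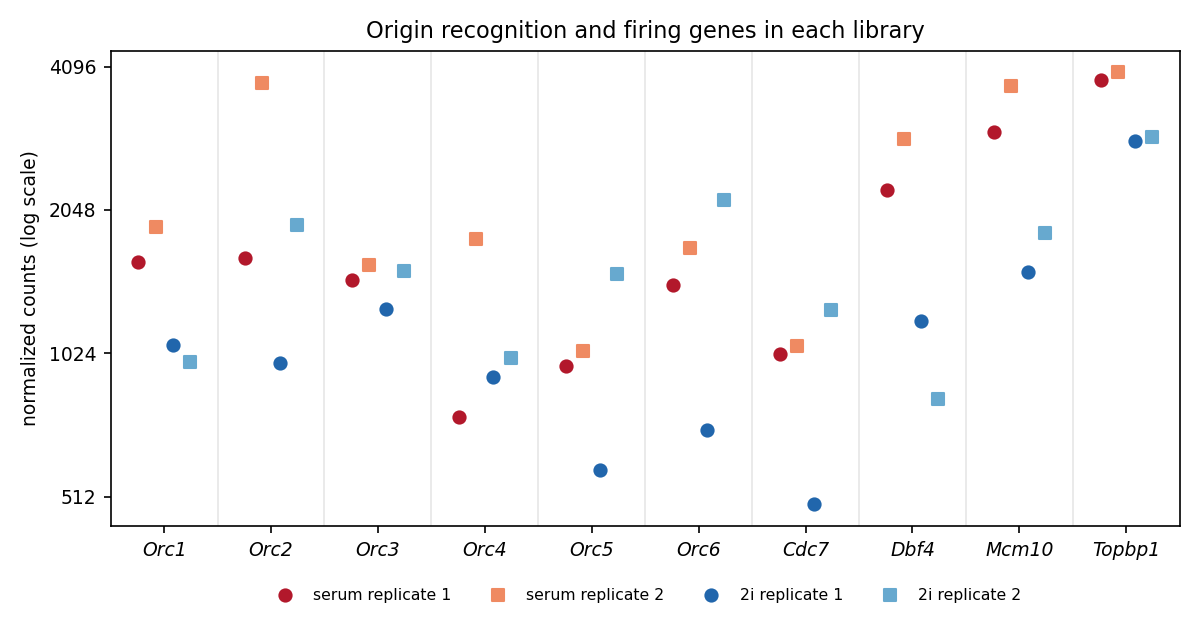
Normalized counts (log scale) of the 10 members in the 4 libraries, with serum libraries in red shades, 2i libraries in blue shades, circles for replicate 1 and squares for replicate 2. For Orc1, Dbf4, Mcm10 and Topbp1 both serum points lie above both 2i points, and for Orc5, Orc6 and Cdc7 the 2i points spread more widely than the serum points.

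No member passed the test at an adjusted p under 0.05 and a 2-fold change (limma with Benjamini-Hochberg adjustment over 13005 genes), and adjusted p-values ran from 0.753 to 0.976. Nor did any other gene with a higher level in serum (0.0% of genes), and 0.0154% of genes passed with a higher level in 2i. Adjusted, edgeR passed 0 members beside 0.0% of genes with a higher level in serum, and DESeq2 passed 0 members beside 0.561%. At an unadjusted p under 0.05 with a 2-fold change, Dbf4 alone of the members passed, with limma (beside 2.97% of genes higher in serum), edgeR (beside 2.21%) and DESeq2 (beside 4.56%), and no member passed with a higher level in 2i (beside 3.0% with limma). Mcm10 also had an unadjusted p under 0.05 with DESeq2 (0.0105), at a log2 fold change of 0.98. At that p alone, with any fold change in either direction, DESeq2 passed 2 members beside 1712 of 13005 genes. The lowest adjusted p-values of members were those of DESeq2, at 0.104 for Dbf4 and 0.188 for Mcm10. The 95% intervals of all 10 members held a 2-fold higher level in serum, those of 9 held no difference, and those of 3 held a 2-fold lower level, so that differences of this size could not be resolved with 2 libraries per condition.

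Of the firing factors, Dbf4 had the largest fold change. Dbf4 (ENSMUSG00000002297, chromosome 5, 8396973 to 8422716, minus strand), the subunit without which the Cdc7 kinase is inactive, had 2252 and 2889 normalized counts in serum (replicate 1, then replicate 2, an order kept throughout) against 1197 and 823 in 2i. Both serum libraries were above both 2i libraries, with serum replicate 2 the highest and 2i replicate 2 the lowest. The log2 fold change was 1.36 (SE 0.45, 95% interval 0.27 to 2.45, limma, unadjusted p = 0.0219, adjusted p = 0.753), and 4.76% of all genes had a higher one. Without 1 library at a time the log2 fold change stayed between 1.09 and 1.63, but the unadjusted p was no longer under 0.05 without serum replicate 1, serum replicate 2 or 2i replicate 2.

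Cdc7 (ENSMUSG00000029283, chromosome 5, 107393341 to 107413451, plus strand) encodes the kinase itself. Its normalized counts were 1019 and 1061 in serum against 493 and 1261 in 2i. The 2i libraries enclosed the serum libraries, with 2i replicate 2 at 2.56 times 2i replicate 1. The log2 fold change was 0.40 (SE 0.56, limma, adjusted p = 0.875), and it was -0.28 without 2i replicate 1.

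Since Cdc7 and Dbf4 act as a pair, their levels were also compared within each library, where scaling by 1 factor per library leaves ratios unchanged. Per kilobase of transcript, the level of Dbf4 was 2.88 and 3.55 times that of Cdc7 in serum replicates 1 and 2. In 2i it was 3.16 times in replicate 1 and 0.850 times in replicate 2. The ratio of 2i replicate 1 thus lay between those of the serum libraries, and 2i replicate 2 alone had less Dbf4 than Cdc7 transcript per length.

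Mcm10 (ENSMUSG00000026669, chromosome 2, 4910760 to 4933837, minus strand), the factor that assists the assembled helicase, had 2987 and 3731 normalized counts in serum against 1517 and 1833 in 2i. The conditions were apart, with replicate 2 the higher in each. The log2 fold change was 1.001 (SE 0.44, 95% interval -0.05 to 2.06, limma, adjusted p = 0.753), so that the means differed by about the 2-fold threshold, which 9.89% of all genes reached with higher levels in serum, and it stayed between 0.84 and 1.16 over 18 alternatives. Topbp1 (ENSMUSG00000032555, chromosome 9, 103207545 to 103252762, plus strand), a scaffold that also activates the checkpoint kinase ATR, had 3833 and 3985 normalized counts in serum against 2864 and 2921 in 2i. Its replicates were the closest of any member in 2i and among the closest in serum. The log2 fold change was 0.43 (SE 0.43, 95% interval -0.61 to 1.48, limma, adjusted p = 0.809), and it stayed between 0.23 and 0.46 over 18 alternatives. The SE exceeds what the replicates of Topbp1 alone would give because limma draws each gene's variance towards that of genes at a similar level.

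**Figure D2:**
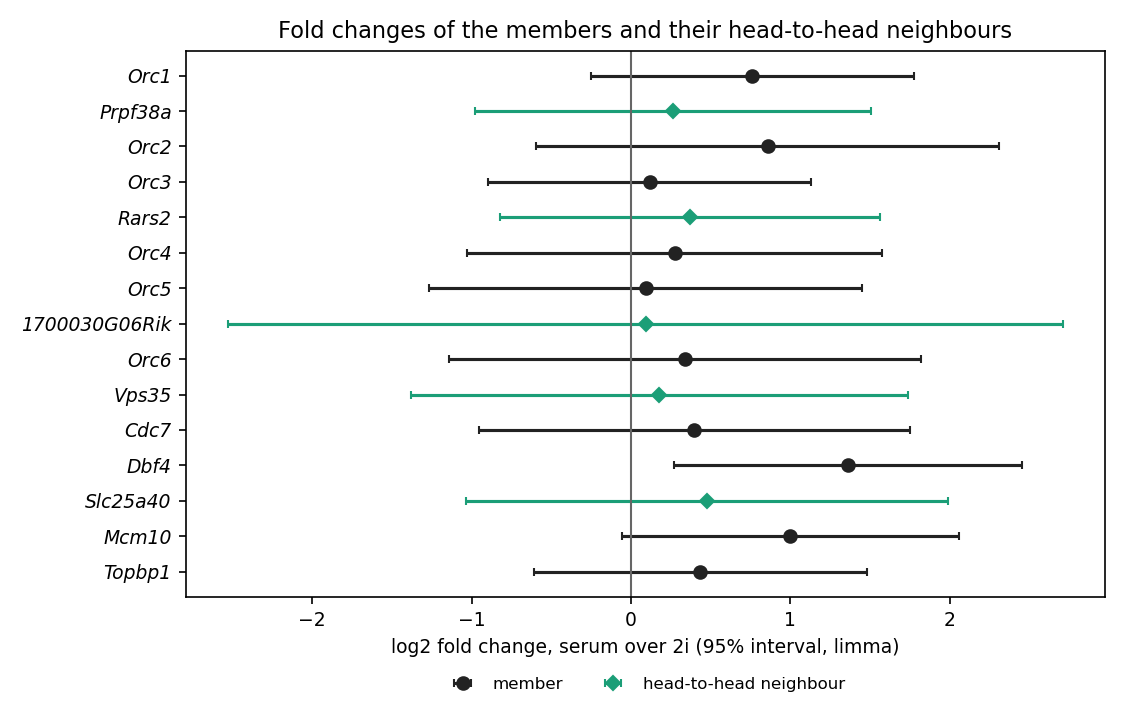
Log2 fold change of serum over 2i for each member (black circles) and for the gene that starts on the other strand close to it (green diamonds), with bars for 95% intervals of limma. Dbf4 is the one gene whose interval (0.27 to 2.45) lies wholly above 0, and the members' points lie at 0.09 or higher, though those of Orc3, Orc4 and Orc5 turned negative under other scalings, models or corrections and those of Orc3, Orc4, Orc5, Orc6 and Cdc7 without 1 of the libraries.

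Of the 6 subunits of the origin recognition complex 1 (16.7%), Orc1, separated the conditions with serum above, beside 20.5% of all genes tested. Orc1 (ENSMUSG00000028587, chromosome 4, 108252028 to 108288633, plus strand), an ATPase subunit whose protein is broken down during S-phase in mammalian cells, had 1593 and 1888 normalized counts in serum against 1065 and 981 in 2i. Both serum values exceeded both 2i values, by 0.58 to 0.94 on the log2 scale over the 4 pairings of libraries. The log2 fold change was 0.76 (SE 0.42, 95% interval -0.25 to 1.77, limma, adjusted p = 0.753), and 16.2% of all genes had a higher one. Over 18 alternatives it stayed between 0.54 and 0.88.

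Orc2 to Orc5 form the core of the complex. Orc2 (ENSMUSG00000026037, chromosome 1, 58519615 to 58561953, minus strand), which pairs with Orc3 in that core, had 1622 and 3789 normalized counts in serum against 978 and 1909 in 2i. Replicate 2 exceeded replicate 1 in both conditions (2.34 times in serum and 1.95 times in 2i), and the groups overlapped. The log2 fold change was 0.86 (SE 0.60, limma, adjusted p = 0.763), and leaving out serum replicate 2 or 1 gave 0.25 or 1.47.

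Orc3 (ENSMUSG00000040044, chromosome 4, 34518045 to 34562193, minus strand) varied least between libraries within the complex, with 1458 and 1568 normalized counts in serum against 1271 and 1528 in 2i. Its groups overlapped, and the log2 fold change was 0.12 (SE 0.42, 95% interval -0.90 to 1.13, limma, adjusted p = 0.958). Orc4 (ENSMUSG00000026761, chromosome 2, 48758344 to 48805797, minus strand), another ATP-binding subunit, had 752 and 1778 normalized counts in serum against 911 and 1003 in 2i, so that the serum libraries enclosed the 2i libraries. Its log2 fold change of 0.27 (SE 0.54, limma, adjusted p = 0.916) became -0.35 when serum replicate 2 was left out and 0.89 when replicate 1 was.

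Orc5 (ENSMUSG00000029012, chromosome 5, 21992303 to 22056247, minus strand), an ATP-binding core subunit, had 961 and 1036 normalized counts in serum against 583 and 1503 in 2i. Orc6 (ENSMUSG00000031697, chromosome 8, 87823531 to 87832177, plus strand), the smallest and most loosely held subunit, had 1423 and 1703 in serum against 705 and 2148 in 2i. For both genes 2i replicate 1 was the lowest library and 2i replicate 2 the highest, at 2.58 and 3.05 times replicate 1, which is the pattern of Cdc7. Their log2 fold changes were 0.09 (SE 0.56, adjusted p = 0.976) and 0.34 (SE 0.61, adjusted p = 0.909) with limma, and they were -0.59 and -0.46 without 2i replicate 1.

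The outcome depended on which libraries were set against each other. Over the 10 members, 40 comparisons of a serum library with a 2i library could be made, and 30 had the higher value in serum. These comparisons reuse the same 4 libraries and are not independent. The members' median log2 difference was 0.72 for serum replicate 1 over 2i replicate 1 and 1.03 for serum replicate 2 over 2i replicate 1. It was -0.15 for serum replicate 1 over 2i replicate 2, where 6 of 10 members were lower in serum, and 0.64 for serum replicate 2 over 2i replicate 2, where 3 were. Over all genes tested the medians of these 4 pairings, in the same order, were 0.012, 0.027, -0.0068 and 0.0. The lowest library was 2i replicate 1 for 7 of 10 members and 27.8% of all genes, and the highest was serum replicate 2 for 7 members and 30.3% of genes. The highest was 2i replicate 2 for the remaining 3 members, Orc5, Orc6 and Cdc7, and for 30.6% of genes.

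**Figure D3:**
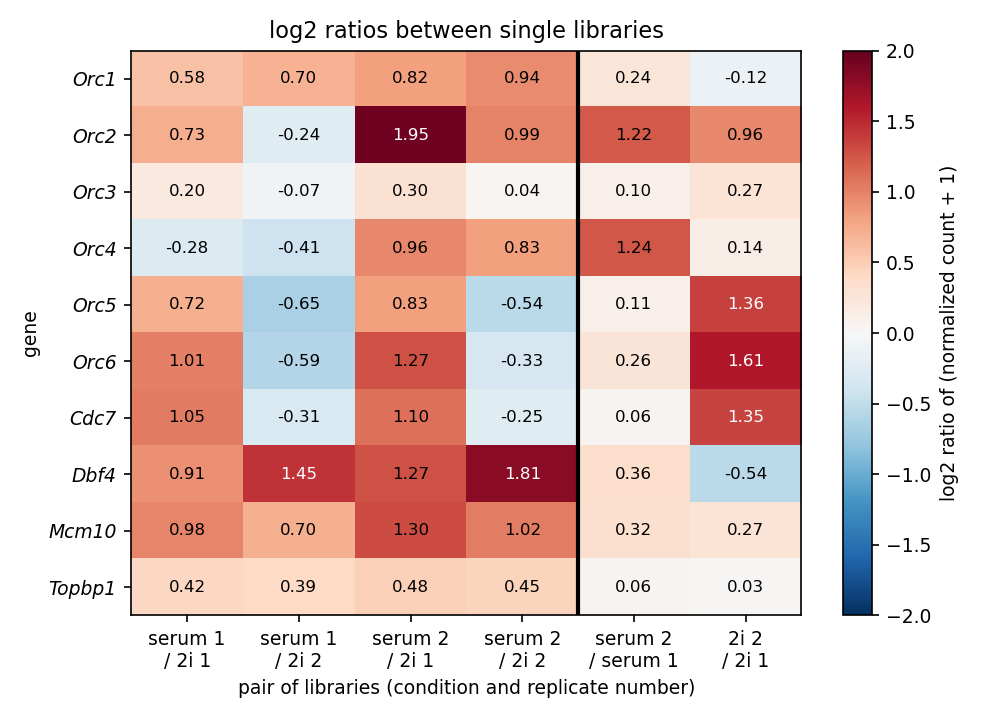
Log2 ratios of (normalized count + 1) between single libraries for each member, with serum over 2i in the 4 columns left of the line and replicate 2 over replicate 1 of serum and 2i in the 2 columns right of it, red above 0 and blue below it. The values of Orc1, Dbf4, Mcm10 and Topbp1 are above 0 in all 4 pairings, while Orc5, Orc6 and Cdc7 are below 0 in both pairings with 2i replicate 2.

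The order of levels was read per kilobase of the longest protein-coding transcript, and isoforms of other lengths would move it. In serum Dbf4 was highest (938 and 1203 normalized counts per kilobase), and Orc4 had the lowest mean (185 and 437). Next to Dbf4 came Orc6 (861 and 1030), Orc2 (455 and 1064), Topbp1 (733 and 762), Mcm10 (614 and 767) and Orc3 (634 and 682), each overlapping the next. Orc3 lay apart from Orc5 (457 and 493) below it, and Orc1 (388 and 460) apart from Cdc7 (326 and 339).

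In 2i the highest mean was that of Orc6 (426 and 1299 normalized counts per kilobase), followed by Orc3 (552 and 664) and Topbp1 (548 and 559), and the lowest were Orc1 (260 and 239) and Orc4 (224 and 247). Every member overlapped its neighbour in that order. Dbf4, first of 10 by mean level per kilobase in serum, stood between Orc5 and Orc2 in 2i, with 498 and 342.

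Within the complex, the level of Orc1 per kilobase was 0.852 and 0.784 times the median of Orc2 to Orc5 in the serum libraries and 0.941 and 0.399 times in the 2i libraries. That of Orc6 was 1.89 and 1.75 times the same median in serum and 1.54 and 2.16 times in 2i. Neither ratio separated the conditions, and 2i replicate 2 had at once the least Orc1 and the most Orc6 relative to the core. The core itself had a median of 456 and 587 normalized counts per kilobase in serum against 276 and 600 in 2i. In 2i replicate 1 this median lies between Orc2 (275) and Orc5 (277). The value of Orc5 is uncertain because of a pseudogene described below. The ratios of that library, and with them the lack of separation, are therefore uncertain too.

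**Figure D4:**
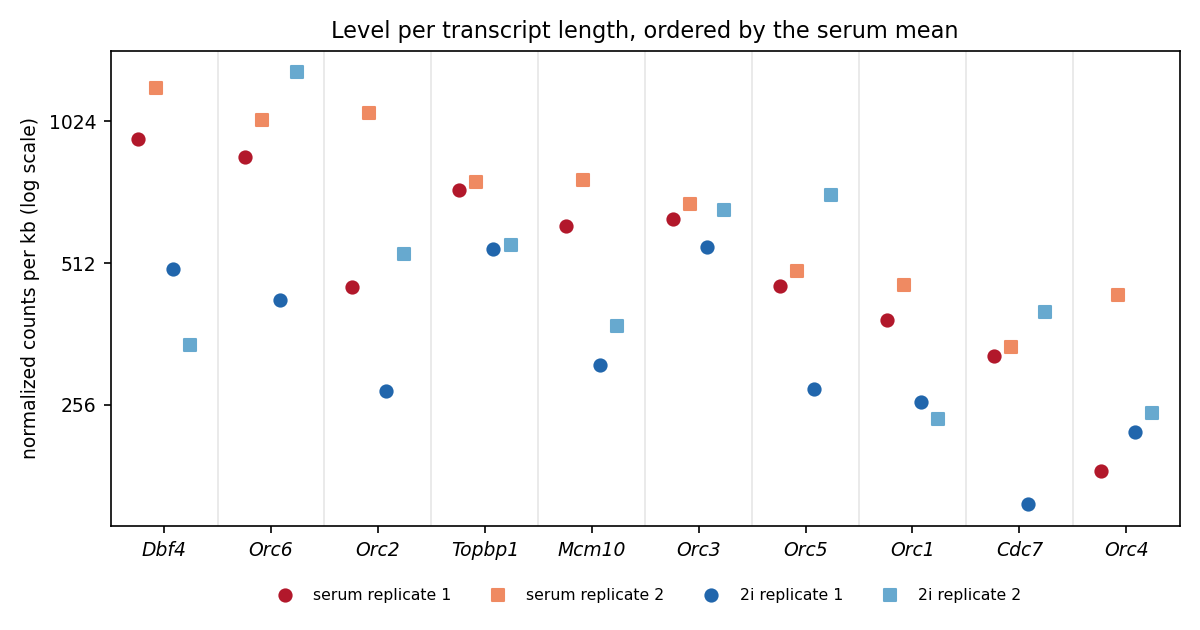
Normalized counts per kilobase of transcript (log scale) in each library, with the members ordered from left to right by their serum mean, and colours and symbols stand for condition and replicate. Dbf4 is at the left with 938 and 1203 in serum, and its 2i points (498 and 342) fall below those of Orc3 and Topbp1.

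Several members start close to a gene on the other strand. Such a gene began within 1000 bases upstream of 7 of the 10 members, as it did for 13.9% of 12926 protein-coding genes. Orc3 lay 13 bases from Rars2, a mitochondrial arginyl-tRNA synthetase, and Orc1 lay 87 bases from Prpf38a, a splicing factor. Orc6 lay 119 bases from Vps35, a subunit of the retromer, Dbf4 134 from Slc25a40, a mitochondrial carrier, Topbp1 133 from 1300017J02Rik, Orc5 8 from the noncoding 1700030G06Rik, and Orc2 39 from Gm15834, which was not in the table.

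All of the 6 neighbours in the table overlapped between the conditions. Of all genes tested, 20.5% were apart with serum above and 19.4% with 2i above. Slc25a40, with 142 and 338 normalized counts in serum against 189 and 131 in 2i, had a log2 fold change of 0.48 (SE 0.63), beside 1.36 for Dbf4. Prpf38a, with 1603 and 2264 in serum against 1131 and 2218 in 2i, had 0.27 (SE 0.52), beside 0.76 for Orc1. The difference within a pair was not tested.

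For Vps35 the normalized counts were 4117 and 5674 in serum against 2441 and 7466 in 2i, and its log2 fold change was 0.18. Its ratio of 2i replicate 2 to 2i replicate 1 was 3.06, next to 3.05 for Orc6. This ratio was 0.69 for both Slc25a40 and Dbf4. It was 1.96 for Prpf38a against 0.92 for Orc1, and 1.82 for Rars2 against 1.20 for Orc3. It was 0.16 for 1700030G06Rik against 2.58 for Orc5, and 0.51 for 1300017J02Rik against 1.02 for Topbp1. Rars2 had a log2 fold change of 0.37 and 1700030G06Rik one of 0.09, and adjusted p-values of the 5 neighbours tested were 0.867 to 0.988 (limma). The gene 1300017J02Rik was under the filter, with 4.86 to 47.8 normalized counts.

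Reads of some members can be confused with those of other genes, because the library kit named in the methods does not mark the strand. Exons of Orc2 overlap Nif3l1 on the other strand by 464 bases, those of Orc4 overlap Acvr2a by 446 and Mbd5 by 136, and those of Orc1 overlap the noncoding Gm12743 by 376. Acvr2a had 312 and 641 normalized counts in serum against 283 and 262 in 2i. Serum replicate 2 was its highest library, as for Orc4, for 7 of 10 members and for 30.3% of all genes. Mbd5 had 169 and 233 in serum against 290 and 112 in 2i, with 2i replicate 1 the highest. Gm12743 had 93.0 and 182 in serum against 156 and 21.3 in 2i, and Nif3l1 794 and 828 in serum against 502 and 739 in 2i. The part of these genes in the members' values was not tested.

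The pseudogene Gm15421 (chromosome 5, 22034139 to 22034537, minus strand) lies inside Orc5 and shares 353 bases with an exon of a noncoding Orc5 transcript in the annotation. Of its 357 words of 43 bases, the read length, 298 were also in the transcripts of Rpl22l1, a ribosomal protein gene. Gm15421 had 1.0005 and 28.2 normalized counts in serum, had 1648 in 2i replicate 1, and was listed at 0 in 2i replicate 2. Rpl22l1 had 2132 and 2102 in serum against 1895 and 2700 in 2i. How the authors' estimation divided reads among these 3 genes is unknown, so the value of Orc5 is uncertain. In the longest protein-coding transcripts of the members, 98.84% (Topbp1) to 100% of such words were found nowhere else in the genome.

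The licensing partners, which load the helicase or restrain its loading, were compared next. Of the 11 genes 9 had a log2 fold change above 0, beside 50.3% of all genes tested, and the median was 0.39. Both serum values lay above both 2i values for 5 of them, beside 20.5% of genes. At an adjusted p under 0.05, 0 passed with limma, edgeR or DESeq2. In limma 2 passed an unadjusted p under 0.05 with a 2-fold change, beside 2.97% of genes higher in serum. The highest was Cdc6, the ATPase that joins the origin recognition complex, with 2548 and 2597 normalized counts in serum against 644 and 1275 in 2i, a log2 fold change of 1.505 (SE 0.50, adjusted p = 0.753 with limma). The lowest was Cdt1, with 499 and 1322 in serum against 772 and 1294 in 2i (-0.30, SE 0.61). Gmnn, which encodes the Cdt1 inhibitor geminin, had 1724 and 2157 in serum against 893 and 962 in 2i (1.06, SE 0.42). The reporters of the study's sorting line carry fragments of CDT1 and GEMININ, whose part in the values of Cdt1 and Gmnn was not tested. The 6 helicase subunits Mcm2 to Mcm7 lay between 0.15 and 0.70, with Mcm4 and Mcm7 apart between the conditions. For Mcm7 the gap was small, with 7065 normalized counts in serum replicate 2 against 7035 in 2i replicate 2. Summed over the list, 2i replicate 2 (45345 normalized counts) was as high as the serum libraries (42865 and 45805) and 2i replicate 1 lower (25773). Without 2i replicate 1 the median of the list was -0.08.

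The partners in firing and in the CMG helicase and its fork were compared in the same way. Of 18 genes 15 were above 0, with a median of 0.40, and 10 had serum above 2i in all pairings, beside 20.5% of all genes tested. When adjusted, 0 passed with limma, edgeR or DESeq2 (0 with limma also at an unadjusted p under 0.05). Leaving out serum replicate 2 gave a median of 0.25 and leaving out 2i replicate 2 gave 0.67. The highest was Clspn, which couples the fork to the checkpoint, with 1367 and 1826 normalized counts in serum against 598 and 975 in 2i, a log2 fold change of 1.05 (SE 0.47, adjusted p = 0.753), and the lowest was Timeless, its partner in fork protection, with 1828 and 2452 in serum against 6215 and 1771 in 2i (-0.65, SE 0.67, adjusted p = 0.819, limma). The sign of Timeless rested on 2i replicate 1, without which it was 0.26. Cdc45, which is brought to the helicase with the help of Topbp1, followed the pattern of Cdc7, with 967 and 914 in serum against 427 and 1413 in 2i. Of the 4 GINS genes 3 were apart between the conditions.

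**Figure D5:**
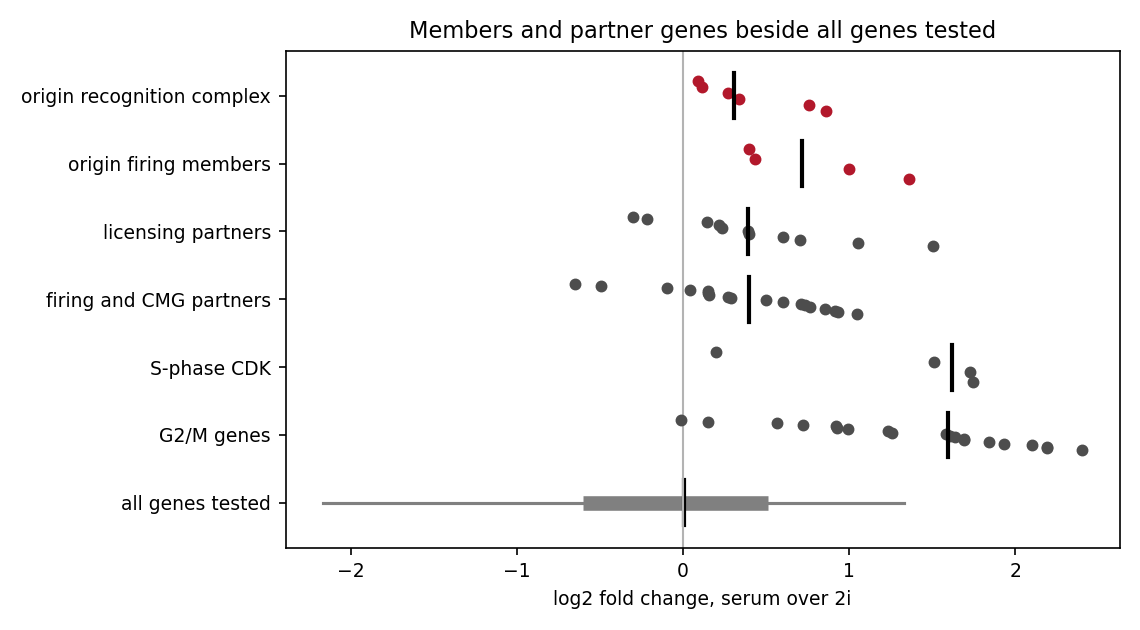
Log2 fold change of serum over 2i for each gene of the member lists (red points) and partner lists (grey points), with a black line at each median. For all genes tested, the thick bar spans the 25th to 75th percentile (-0.60 to 0.51) and the thin line the 5th to 95th (-2.16 to 1.33). The medians of the licensing partners (0.39) and firing partners (0.40) lie near that of the members (0.42). Those of S-phase CDK (Cdk2 and its cyclins) and G2/M genes lie higher (1.62 and 1.60).

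The S-phase genes (the kinase gene Cdk2 and the cyclin genes Ccna2, Ccne1 and Ccne2) and the G2/M genes had higher medians than the members. This difference was not tested, and G2/M transcripts are given because they mark cells outside G1-phase. All 4 S-phase genes were above 0 with a median of 1.62. The cyclin genes were at 1.74 (Ccna2), 1.73 (Ccne2) and 1.51 (Ccne1), whereas Cdk2 was at 0.20. Cdk2 and Ccne2 overlapped between the conditions, and without 2i replicate 1 the median was 0.91. Of these 4 genes 2 passed an unadjusted p under 0.05 with a 2-fold change in limma, beside 2.97% of all genes, higher in serum. When adjusted, 0 passed with limma or edgeR, and DESeq2 passed 1, Ccna2 (adjusted p = 0.0165). Of 20 genes known for expression in G2/M 19 were above 0 with a median of 1.60. Of these 20, 17 were apart between the conditions with serum above, beside 20.5% of all genes tested. With limma 13 passed an unadjusted p under 0.05 with a 2-fold change, beside 2.97% of genes higher in serum. When adjusted, 0 passed with limma and edgeR, while DESeq2 passed 6, beside 0.561% of genes higher in serum. The 20 G2/M genes ranged from Cdk1 (-0.01) to Mki67 (2.40, but 1.26 without 2i replicate 2 and 3.54 without 2i replicate 1). Their summed level was 44390 and 63068 normalized counts in serum against 25067 and 19523 in 2i. Dbf4 and Orc1, chosen after their values were seen, had the same order of the 4 libraries as this sum, which 8.69% of all genes had. The part of cells outside G1-phase in the members' values was not tested.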

How the data were processed

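RNA was measured in 4 libraries of sorted mouse ESCs. The authors depleted ribosomal RNA, primed total RNA at random, sequenced single-end reads of 43 bases, aligned them with Bowtie to mm9 (also named in the submitters' processing notes) and quantified transcripts with MMSeq, which divides reads that several transcripts share. The deposited values are a signal: counts per gene, scaled in each library by its DESeq2 size factor. In each library 100% of the values were whole multiples of a single step (tolerance 0.001), so that whole reads could be recovered.

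Genes were named from GENCODE vM1 (14462 of 14533 matched). The 13005 genes whose mean reached 50 normalized counts in serum or in 2i entered the test, which was limma (3.58.1, run in R 4.3.3) with a variance trend and Benjamini-Hochberg adjustment, fitted without a replicate term to the log2 of the normalized count plus 1. Because of this added count, fold changes (serum over 2i) of low genes are understated. A call needed an adjusted p under 0.05 and a 2-fold change. The study called genes with DESeq2. Because the deposited values were scaled, edgeR 4.0.16 and DESeq2 1.42.0 on whole reads were alternatives only. Further alternatives were pseudocounts of 0.5 and 5, no filter, a mean of at least 200, TMM, upper quartile and quantile scaling, protein-coding genes only, no trend, a replicate block, a correction for GC content and length (mgcv 1.9.3), and leaving out each library, which assumes that the lone library of a condition varies like the other condition. The fit was tested on simulated data.

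The members and lists were chosen with earlier results of these data known. Every member was named, as were the highest and lowest gene of each partner list and each gene that starts on the other strand within 1000 bases upstream of a member. Any other list gene may be named. Promoters came from RefSeq, and all 10 members matched.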

Additional observations from a re-analysis of the deposited data

How the results depend on the processing

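With 2 libraries per condition, the spread between libraries limits all calls. No member passed an adjusted p under 0.05 in any of 18 alternatives, and Orc1, Orc2, Dbf4, Mcm10 and Topbp1 kept their sign in all of them. Upper quartile scaling moved the median log2 fold change of all genes to -0.12, and a mean of at least 200 moved it to 0.12. Of all genes, limma called 0 as higher in serum and 2 as higher in 2i. Other counts were 73 and 178 with DESeq2, 0 and 0 with edgeR, 0 and 4 with a mean of at least 200, 0 and 1 without trend, and 0 in 2i with protein-coding genes only or the GC and length correction. Past an unadjusted p under 0.05 and a 2-fold difference there were 386 genes in serum and 390 in 2i with limma, 593 and 987 with DESeq2, and 233 in 2i with a mean of at least 200. Same-numbered libraries deviated together (r = 0.480 across genes), but with 2 pairs and no label this does not show a pairing. A replicate block called 44 and 159 genes (637 and 788 unadjusted), with the correction 1 in serum and 3 in 2i (715 and 499 unadjusted), and 0 members. Among the G2/M genes it called 3 (limma, adjusted p = 0.0232 for Mki67, 0.0215 for Tpx2 and 0.0302 for Cenpe), and Mki67 had 0.185 with block and correction. Log2 fold changes turned negative for Orc3 (upper quartile -0.0032, quantile -0.054), Orc4 (GC and length correction -0.12, with or without the block) and Orc5 (upper quartile -0.029, quantile -0.020, edgeR -0.088, DESeq2 -0.078). They changed sign for Cdt1 (correction 0.19, with or without the block), Vps35 (edgeR -0.043, DESeq2 -0.032, correction -0.16, with or without the block) and 1700030G06Rik (upper quartile -0.027, edgeR -0.40, DESeq2 -0.39). Leaving out 1 library at a time gave ranges that crossed 0, namely -0.015 to 0.25 for Orc3, -0.35 to 0.89 for Orc4, -0.59 to 0.77 for Orc5, -0.46 to 1.14 for Orc6, -0.28 to 1.07 for Cdc7, -1.0003 to 0.40 for Cdt1, -1.55 to 0.26 for Timeless, -0.047 to 0.45 for Cdk2, -0.61 to 0.59 for Cdk1, -0.22 to 0.75 for Prpf38a, -0.059 to 0.80 for Rars2, -1.20 to 1.38 for 1700030G06Rik, -0.63 to 0.99 for Vps35 and -0.15 to 1.10 for Slc25a40. The median of the members ranged from 0.29 to 0.92, of the licensing partners from -0.077 to 0.73, of the firing and CMG partners from 0.25 to 0.67, of the G2/M genes from 1.19 to 1.81 and of the S-phase genes (Cdk2 and its cyclins) from 0.91 to 1.88. Counts without 1 library ranged from 0 to 8 genes called as higher in 2i, from 47 to 833 and 129 to 705 genes unadjusted as higher in serum and in 2i, and from 0 to 1 members. The cause of these changes was not tested.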
